A study of Mus musculus with 8 samples.

Results

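The chromatin remodeller genes described here are the SWI/SNF, CHD and ARID families of the mouse, taken as every gene whose symbol begins with Smarca to Smarce or Arid1 to Arid5, or is Chd1 to Chd9. The rule found 33 of the 37620 genes in the tables: 14 Smarc genes, 10 Arid genes and 9 Chd genes. Smarce1-ps1, a name that also meets the rule, was not analysed here. Expression was read by RNA sequencing in 8 libraries of flow-sorted mouse small intestinal epithelium, all depleted of cells that carried the leukocyte antigen CD45 or bound the lectin Ulex europaeus agglutinin I, which marks secretory cells. In 4 of them (CD24Mid, numbers 1, 3, 5 and 7) the cells had intermediate surface CD24, a population that the submitters also call CD24low. The other 4 (CD24Neg, numbers 2, 4, 6 and 8) held cells without CD24. The labels describe them as biological replicates, and name no genotype, strain, age, treatment or pooling. The series title places the comparison in the differentiation of the intestine.

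Chromatin remodellers use the energy of ATP to slide, evict or exchange nucleosomes, and so set which stretches of DNA transcription factors can reach. SWI/SNF complexes are built from a catalytic subunit (Smarca4, also called BRG1, or Smarca2, also called BRM), a core of Smarcb1, Smarcc and Smarcd proteins, and a DNA-binding subunit with an AT-rich interaction domain (Arid1a, Arid1b or Arid2). Many of these positions can be filled by either of several paralogs, so that the relative level of paralogs is a property of the complex that a cell can build. CHD proteins pair a related ATPase with chromodomains that read histone tails, and Chd3, Chd4 and Chd5 are the alternative ATPases of the NuRD deacetylase complex. Arid3, Arid4 and Arid5 genes share the DNA-binding domain without being subunits of SWI/SNF, and Smarca5-ps is annotated as a pseudogene, so the family names cover more than remodelling enzymes. In the intestine, Smarca4 is known to be needed for the maintenance of crypt stem cells in mice.

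Each CD24Mid library held 15473071 to 17537818 reads unique to 1 gene, and each CD24Neg library 11340782 to 18928233. Levels are given as CPM (gene-unique reads over the library total after TMM scaling), a scaling that corrects library totals for a few very abundant genes. Absence of reads limits a gene to at most 0.121 to 0.145 CPM in a CD24Mid library and 0.218 to 0.38 CPM in a CD24Neg library (3 counts, covering counting error only). Cd24a, the gene of the sorted antigen, stood at 155, 255, 176 and 190 CPM in CD24Mid and at 24.8, 38.5, 19.2 and 31.7 CPM in CD24Neg. Mitochondrial genes held 8.03% to 9.17% of unique reads in CD24Mid and 27.7% to 37.0% in CD24Neg. By edgeR, all 16 dividing-cell markers (summed levels of 2100 to 2761 CPM in CD24Mid against 236 to 486 CPM in CD24Neg) and all 8 crypt base stem cell markers (3258 to 4281 CPM in CD24Mid against 141 to 379.9 CPM in CD24Neg) were higher in CD24Mid. All 12 enterocyte markers (1894 to 3257 CPM in CD24Mid against 36393 to 59044 CPM in CD24Neg) and 5 of 7 tested goblet markers (3415 to 5303 CPM in CD24Mid against 12226 to 34480.3 CPM in CD24Neg) were higher in CD24Neg. Markers of other cells also moved. All 8 T and NK lymphocyte markers were higher in CD24Neg (6.74 to 18.8 CPM in CD24Mid against 30.7 to 529 CPM in CD24Neg). Higher in CD24Mid were 5 of 6 tested B and plasma cell markers (395 to 1012 CPM in CD24Mid against 22.6 to 53.8 CPM in CD24Neg) and 8 of 10 enteroendocrine markers (283 to 827 CPM in CD24Mid against 77.6 to 124 CPM in CD24Neg). Paneth, tuft, myeloid and stromal markers had 1 of 6, 1 of 3, 2 of 5 and 1 of 2 tested genes higher in CD24Mid, with Il25 at 0 in both groups, Gfi1b at 0 in CD24Neg and Col1a2 at 0 in CD24Mid. Of all tested genes, 35.5% were called higher in CD24Mid and 34.3% higher in CD24Neg, shares that apply to every marker count here. The tuft and myeloid counts, on few genes, were near the first share. Dividing-cell, stem, plasma cell and enteroendocrine markers thus moved with the remodellers higher in CD24Mid, and enterocyte, goblet and lymphocyte markers and the mitochondrial share with those higher in CD24Neg, and their part in the values that follow was not tested. In sorted populations of this kind, fewer cells of a type and less RNA per cell cannot be told apart.

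Most remodeller genes that changed were higher in CD24Mid, with Chd3 as a large exception. Of the 33 genes, 30 had enough reads to be tested, and Arid3c, Chd5 and Smarca1 had not. At an edgeR adjusted p under 0.05 over all genes, 16 of the 30 were higher in CD24Mid, where 35.5% of all 12840 tested genes were called in that direction. A further 4 were higher in CD24Neg, where 34.3% of all tested genes were called, and 10 did not pass. In shares, 53.3% of the tested remodellers were higher in CD24Mid and 13.3% in CD24Neg. Their median log2 fold change (CD24Mid over CD24Neg) was 0.41, and that of all tested genes 0.015. The libraries of the groups did not overlap for 15 genes with CD24Mid above (33% of all tested genes) and for 4 with CD24Neg above (31.4% of all tested genes).

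Counts by family follow, with no test between families. Among the 13 tested Smarc genes edgeR called 10 toward CD24Mid and 0 toward CD24Neg, with a median log2 fold change of 0.61. The 12 SWI/SNF subunits (Smarca2, Smarca4, the Smarcb, Smarcc, Smarcd and Smarce genes, Arid1a, Arid1b and Arid2) had 9 genes higher in CD24Mid, 0 higher in CD24Neg and 3 that did not pass, with a median of 0.52. Both counts of 0 were also 0 at an unadjusted p under 0.05, with DESeq2 and with limma. Of the 9 tested Arid genes, 3 were called toward CD24Mid and 2 toward CD24Neg, and of the 8 tested Chd genes again 3 and 2. The shares of all tested genes were 35.5% toward CD24Mid and 34.3% toward CD24Neg. Toward CD24Mid the Arid genes (33.3%) and Chd genes (37.5%) were near that share, and toward CD24Neg they stood at 22.2% and 25%. Scaling bears on these splits: on library totals without TMM scaling the median of all genes moved by 0.94 on the log2 scale, 22 of the 30 remodellers were called higher in CD24Mid where 69.8% of all genes were, and Chd3 alone was called higher in CD24Neg. With upper-quartile scaling, which moved that median by 0.22, 18 were higher in CD24Mid (43.6% of all genes) and 4 in CD24Neg (27.3%). Without the filter on low counts, all 33 entered, and 16 were called toward CD24Mid (25.1% of 21402 genes) and 5 toward CD24Neg (20.3%).

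**Figure D1:**
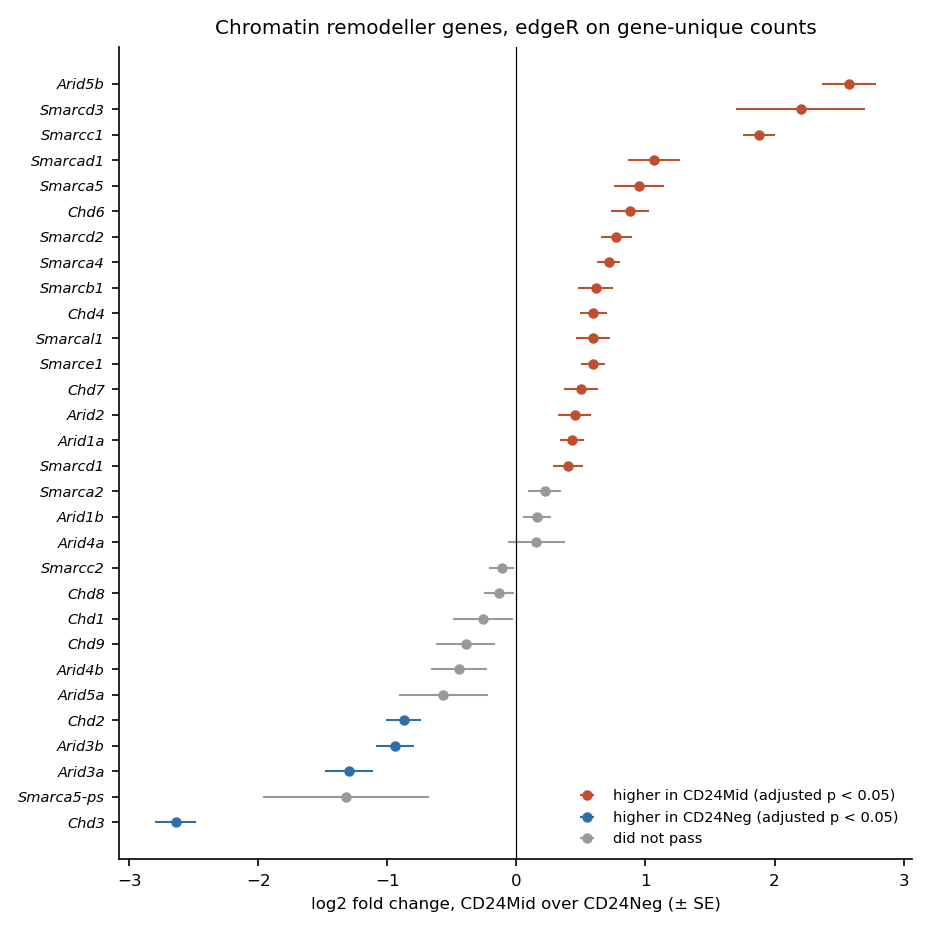
Log2 fold change, CD24Mid over CD24Neg, of the 30 tested remodeller genes with bars of 1 SE, coloured by the edgeR call on TMM-scaled counts. Values run between Chd3 at -2.64 and Arid5b at 2.58, and 16 genes lie to the right as higher in CD24Mid against 4 higher in CD24Neg, of which Chd3 alone kept that call on unscaled totals.

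Among the catalytic subunits of SWI/SNF, Smarca4 was higher in CD24Mid and Smarca2 did not pass. Smarca4 (ENSMUSG00000032187) stood at 204, 220.2, 212 and 216 CPM in CD24Mid and at 135, 128, 121 and 135 CPM in CD24Neg. Every CD24Mid library lay above every CD24Neg library, and the difference was 1.64-fold (log2 fold change 0.71 ± 0.09 SE, edgeR adjusted p = 3.99e-05). Smarca2 (ENSMUSG00000024921) stood at 40.9, 48.4, 60.4 and 49.8 CPM in CD24Mid and at 37.9, 42.0, 47.9 and 43.6 CPM in CD24Neg. These libraries overlapped, and the log2 fold change of 0.22 ± 0.13 SE did not pass (edgeR adjusted p = 0.153). It passed with upper-quartile scaling (0.44), on unscaled totals (1.16) and without CD24Mid replicate 1 (0.30, adjusted p = 0.048), and turned to -0.28 on estimated counts that include reads shared with other genes (adjusted p = 0.084).

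The core subunits held the widest contrast within SWI/SNF. Smarcc1 and Smarcc2 encode the paired scaffold proteins BAF155 and BAF170, around which the complex is assembled. Smarcc1 (ENSMUSG00000032481) stood at 85.6, 118, 119 and 113 CPM in CD24Mid and at 28.9, 30.9, 27.7 and 31.1 CPM in CD24Neg, a 3.68-fold difference with no overlap (log2 fold change 1.88 ± 0.12 SE, edgeR adjusted p = 4.20e-07). Smarcc2 (ENSMUSG00000025369) stood at 143, 146, 133 and 136 CPM in CD24Mid and at 159, 148, 159.6 and 138 CPM in CD24Neg. The Smarcc2 ranges overlapped, and its log2 fold change of -0.12 ± 0.09 SE did not pass (edgeR adjusted p = 0.292). Exons of Smarcc1 overlap those of Dhx30 on the opposite strand in the GENCODE M21 annotation, and Dhx30 held 5011 unique reads in CD24Mid and 1426 in CD24Neg. No source used here gives the strand setting, and reads from such a pair cannot be told apart where they overlap.

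The promoters of these paralogs and of Arid5b, the gene with the largest rise in CD24Mid, are shown because Smarcc1 and Arid5b passed the test by a wide margin and Smarcc2 did not. Each run is the 250 bases before the annotated start in RefSeq on build GRCm38.p6, read 5′ to 3′ on the gene's strand, with capitals for a GC box (GGGCGG) or a TATA box (TATAAA), either on either strand. They lie at chr9:110131774-110132023 (+) for Smarcc1, chr10:128458986-128459235 (+) for Smarcc2 and chr10:68278727-68278976 (-) for Arid5b.
Smarcc1: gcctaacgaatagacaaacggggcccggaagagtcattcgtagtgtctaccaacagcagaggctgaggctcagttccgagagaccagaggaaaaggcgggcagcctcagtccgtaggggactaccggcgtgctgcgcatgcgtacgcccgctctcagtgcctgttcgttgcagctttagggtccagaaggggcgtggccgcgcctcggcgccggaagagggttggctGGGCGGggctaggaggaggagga
Smarcc2: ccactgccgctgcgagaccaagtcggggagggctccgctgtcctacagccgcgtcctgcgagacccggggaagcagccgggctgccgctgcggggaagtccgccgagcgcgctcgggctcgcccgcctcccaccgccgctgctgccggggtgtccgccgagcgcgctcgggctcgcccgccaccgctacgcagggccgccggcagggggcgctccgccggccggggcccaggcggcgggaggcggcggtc
Arid5b: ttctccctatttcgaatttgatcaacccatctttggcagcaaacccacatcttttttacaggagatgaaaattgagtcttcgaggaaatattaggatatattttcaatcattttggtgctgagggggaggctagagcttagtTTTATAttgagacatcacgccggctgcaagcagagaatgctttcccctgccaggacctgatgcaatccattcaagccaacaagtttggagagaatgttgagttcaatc
The Smarcc1 window was 63.6% GC with 21 CpG and held 1 GC box. That of Smarcc2 was 80.8% GC with 40 CpG and held neither motif, while that of Arid5b was 42% GC with 4 CpG and held the TATA letters on the reverse strand, TTTATA. RefSeq gave at least 1 promoter for 24 of the 33 genes, 30 windows in all, and none for Arid2, Arid3a, Arid4a, Chd1, Chd2, Chd3, Chd7, Smarca5-ps and Smarce1. The GC box was found in 76.7% of the 30 windows and in 32.7% of all 32851 windows of that length. The TATA letters were in windows of Arid5b and Smarcd2 alone (12.4% of all windows), and CCAAT in windows of 8 genes (33.8% of all windows). TTTCCCGC, a form of the E2F site, was in windows of Arid1a and Smarcd1 (0.895% of all windows), and CACGTG, the E-box, in none (6.02% of all windows). Each motif was searched on both strands, and a GC box can share bases with the E2F form. Median GC was 66.6% with 21 CpG over the remodeller windows and 52.4% with 6 CpG over all windows, a difference in base composition that these motif shares move with and whose part in them was not tested.

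The remaining core and accessory subunits were all higher in CD24Mid. Smarcb1, the core subunit lost in rhabdoid tumours, stood at 82.7, 89.8, 69.6 and 69.2 CPM in CD24Mid and at 59.0, 48.1, 42.0 and 54.8 CPM in CD24Neg (log2 fold change 0.61 ± 0.13 SE, edgeR adjusted p = 0.0019). Smarce1, which carries an HMG box that binds DNA, averaged 83.4 ± 4.25 CPM in CD24Mid cells and 55.2 ± 4.03 CPM in CD24Neg cells (SD, n = 4 each). Its log2 fold change was 0.59 ± 0.09 SE (edgeR adjusted p = 2.02e-04). The Smarcd genes encode alternative BAF60 adapters, which link the complex to transcription factors. Smarcd2, the most abundant of them, stood at 162, 194, 151 and 141 CPM in CD24Mid and at 108, 90.5, 90.5 and 90.1 CPM in CD24Neg (0.77 ± 0.12 SE, edgeR adjusted p = 1.97e-04). Smarcd1 averaged 33.1 ± 3.92 CPM in CD24Mid cells and 25.1 ± 2.55 CPM in CD24Neg cells (0.40 ± 0.12 SE, edgeR adjusted p = 0.012). Smarcd3, known from heart and muscle, was near the limit of detection with 28, 21, 28 and 70 reads in the CD24Mid libraries and 4, 3, 2 and 4 in the CD24Neg libraries. Its summed reads relative to scaled library size were 4.90 times as high in CD24Mid (95% exact interval 2.78 to 9.41, counting error only), and edgeR called it (adjusted p = 0.0023). Exons of Smarcd3 overlap Chpf2, which had 844 unique reads in CD24Mid and 596 in CD24Neg, on the opposite strand. Unique reads were 72.4% of the estimated reads of Smarcd3.

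Of the DNA-binding subunits, Arid1a and Arid2 were moderately higher in CD24Mid and Arid1b did not pass. Arid1a, which defines the canonical BAF form together with its paralog Arid1b, stood at 141, 167, 169 and 161 CPM in CD24Mid and at 119, 119.9, 118 and 118 CPM in CD24Neg. The groups did not overlap, with a log2 fold change of 0.43 ± 0.09 SE (edgeR adjusted p = 0.0019). Arid1b stood at 53.2, 58.6, 68.9 and 66.1 CPM in CD24Mid and at 52.3, 55.1, 59.5 and 53.9 CPM in CD24Neg, which missed the threshold (0.16 ± 0.11 SE, edgeR adjusted p = 0.198), though it passed on unscaled totals (1.11) and with upper-quartile scaling (0.39). Arid2, the subunit of the PBAF form, averaged 61.7 ± 9.72 CPM in CD24Mid cells and 45.1 ± 4.00 CPM in CD24Neg cells. Arid2 was called higher in CD24Mid (0.45 ± 0.13 SE, edgeR adjusted p = 0.0091), although its lowest CD24Mid library at 48.8 CPM lay below its highest CD24Neg library at 48.9 CPM.

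Reads per kilobase of effective length allow levels of different genes to be set beside each other. On this scale the most abundant remodellers in CD24Mid were Smarcd2 (80.0 ± 9.89 CPM per kilobase, SD, n = 4), Smarce1 (66.6 ± 3.23), Chd4 (64.6 ± 6.15), Smarcb1 (57.8 ± 7.57) and Smarca4 (46.2 ± 1.42). The order of Smarce1, Chd4 and Smarcb1 among themselves is not set. In CD24Neg the order began with Chd3 at 248 CPM per kilobase, followed by Smarcd2 (47.8), Chd4 (43.7), Smarce1 (43.4) and Smarcb1 (37.2). The SDs of the last 4 ran from 3.70 to 8.21, so their order among themselves is not set. Chd3 was sixth in CD24Mid, at 34.8 ± 6.52 CPM per kilobase. Smarcc1 took place 8 in CD24Mid (25.0 ± 3.69) and place 17 in CD24Neg (7.03 ± 0.247).

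**Figure D2:**
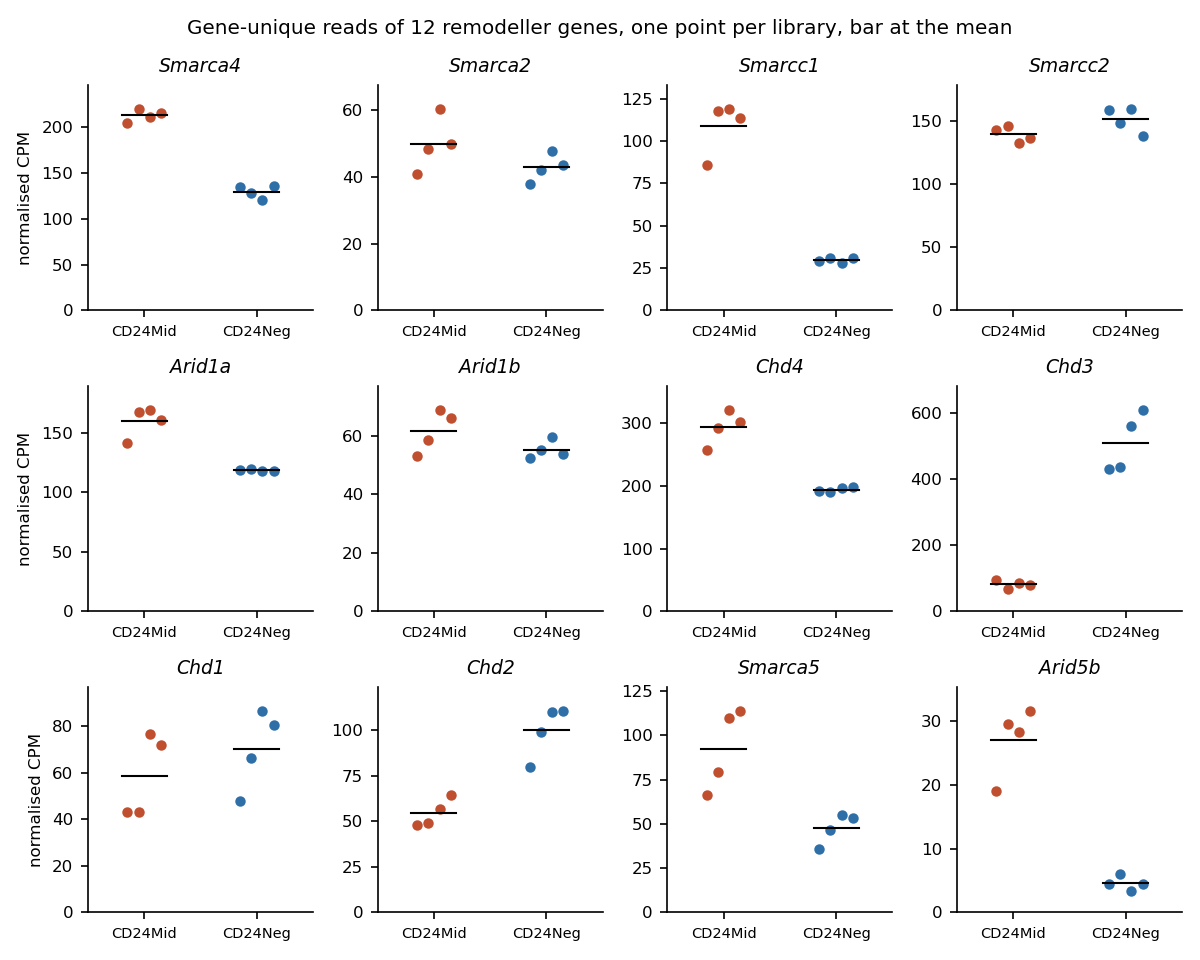
TMM-normalised CPM of 12 remodeller genes in the 4 CD24Mid and 4 CD24Neg libraries, with 1 point per library and a bar at the mean and each axis starting at 0. Chd3 is at 68.9 to 94.2 CPM in CD24Mid and at 432 to 611 CPM in CD24Neg, while Smarcc1 is at 85.6 to 119 CPM in CD24Mid against 27.7 to 31.1 CPM in CD24Neg and the Smarcc2 libraries overlap.

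Among the Smarca genes outside SWI/SNF, 3 of 4 tested genes were higher in CD24Mid (35.5% of all tested genes). The one that did not pass is the pseudogene Smarca5-ps, and Smarca5 was the only ISWI ATPase tested. Smarca5, the main ISWI ATPase (SNF2H), which spaces nucleosomes, stood at 66.4, 79.1, 109.9 and 114 CPM in CD24Mid and at 35.8, 46.6, 55.1 and 53.2 CPM in CD24Neg (log2 fold change 0.95 ± 0.19 SE, edgeR adjusted p = 0.0011). No CD24Mid library reached down to a CD24Neg library, and the CD24Mid libraries spread over a wide range. Smarcad1, which acts in the restoration of silent chromatin after replication, averaged 28.3 ± 6.30 CPM in CD24Mid cells and 13.5 ± 3.08 CPM in CD24Neg cells (1.07 ± 0.20 SE, edgeR adjusted p = 7.51e-04). Smarcal1, an annealing helicase of stalled replication forks, averaged 19.3 ± 2.50 CPM in CD24Mid cells and 12.7 ± 1.10 CPM in CD24Neg cells (0.59 ± 0.13 SE, edgeR adjusted p = 0.0019). The second ISWI ATPase, Smarca1, had 18 reads in CD24Mid, 12 of them in replicate 5, and 3 reads in CD24Neg, a ratio of 2.60 with a 95% exact interval from 0.758 to 13.8, so that no difference was detectable at this depth. The pseudogene Smarca5-ps had 34 reads in CD24Mid and 38 in CD24Neg and did not pass (-1.32 ± 0.65 SE, edgeR adjusted p = 0.089). Unique reads made up 64.9% of the estimated reads of Smarca5 and 48.6% of those of Smarca5-ps, so both levels are uncertain. With shared reads counted in, the log2 fold change of Smarca5 was 0.96.

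Chd3 and Chd4, alternative ATPases of NuRD, changed in opposite directions. Chd3 (ENSMUSG00000018474) stood at 94.2, 68.9, 85.4 and 79.1 CPM in CD24Mid and at 432, 436, 562 and 611 CPM in CD24Neg. All CD24Neg libraries lay far above all CD24Mid libraries, a 6.23-fold difference (log2 fold change -2.64 ± 0.16 SE, edgeR adjusted p = 2.49e-07) that was called under every scaling tried. Chd4 (ENSMUSG00000063870) stood at 257, 292, 321 and 302 CPM in CD24Mid and at 192, 189, 196 and 198 CPM in CD24Neg, without overlap (0.60 ± 0.10 SE, edgeR adjusted p = 3.47e-04). Of the unique reads of Chd3, Chd4 and Chd5 together, Chd3 held 21.9% ± 3.35 in CD24Mid and 72.0% ± 3.11 in CD24Neg (SD, n = 4 each). Per kilobase of effective length the shares of Chd3 were 35.0% in CD24Mid and 84.8% in CD24Neg. The effective length of Chd3 was 1989 to 2490 bases over the libraries, and its coding transcripts in GENCODE M21 run from 430 to 7261 bases. Which forms of Chd3 gave these reads was not tested. Chd5, known chiefly from the nervous system, had 9, 6, 6 and 5 reads in the CD24Mid libraries and 7, 9, 24 and 11 in the CD24Neg libraries. It did not pass the filter on low counts, and the CD24Neg level was 4.53 times the CD24Mid level (95% exact interval 2.77 to 7.57, counting error only). Without the filter edgeR called Chd5 higher in CD24Neg (log2 fold change -1.99, adjusted p = 8.09e-04).

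Of Chd1 and Chd2, which bind active genes, Chd2 passed the test. Chd2 stood at 48.0, 49.3, 56.6 and 64.3 CPM in CD24Mid and at 79.7, 99.2, 110.2 and 111 CPM in CD24Neg, and was called higher in CD24Neg (log2 fold change -0.87 ± 0.14 SE, edgeR adjusted p = 1.85e-04), a direction that turned to 0.070 on unscaled totals, where the median of all genes was 0.96. Chd1, needed in mouse embryonic stem cells for open chromatin, stood at 43.3, 43.3, 76.7 and 72.0 CPM in CD24Mid and at 48.1, 66.6, 86.8 and 80.5 CPM in CD24Neg. The Chd1 groups overlapped and did not pass (-0.26 ± 0.23 SE, edgeR adjusted p = 0.33).

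Of the 4 genes from Chd6 to Chd9, Chd6 and Chd7 were higher in CD24Mid, and Chd8 and Chd9 did not pass. Chd6 averaged 42.5 ± 6.34 CPM in CD24Mid cells and 23.1 ± 3.70 CPM in CD24Neg cells (log2 fold change 0.88 ± 0.15 SE, edgeR adjusted p = 2.72e-04). Unique reads were 79.7% of the estimated reads of Chd6. Chd7, the gene of CHARGE syndrome in humans, averaged 48.5 ± 7.59 CPM in CD24Mid cells and 34.3 ± 4.01 CPM in CD24Neg cells (0.50 ± 0.13 SE, edgeR adjusted p = 0.0062), a call lost with limma on the deposited estimates (0.41, adjusted p = 0.058). Chd8, a binding partner of beta-catenin, averaged 87.4 ± 5.20 CPM in CD24Mid cells and 96.0 ± 13.4 CPM in CD24Neg cells. Chd9 averaged 43.5 ± 13.5 CPM in CD24Mid cells and 57.0 ± 13.6 CPM in CD24Neg cells, and both missed the threshold (edgeR adjusted p = 0.311 for Chd8 and 0.149 for Chd9).

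The Arid genes outside SWI/SNF held both the largest rise and 2 of the 4 genes higher in CD24Neg. Arid5b, which works with the histone demethylase Phf2 and in fat cell formation, stood at 19.1, 29.5, 28.2 and 31.6 CPM in CD24Mid and at 4.43, 6.02, 3.41 and 4.53 CPM in CD24Neg. This 5.96-fold difference had no overlap (log2 fold change 2.58 ± 0.21 SE, edgeR adjusted p = 1.50e-06). Its paralog Arid5a, which also stabilises inflammatory mRNAs, was low, with 2.23, 1.77, 2.05 and 2.05 CPM in CD24Mid and 5.70, 1.85, 2.11 and 2.54 CPM in CD24Neg, and missed the threshold (edgeR adjusted p = 0.164). Unique reads were 61.5% of the estimated reads of Arid5a.

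Arid3a, first described as an activator of immunoglobulin heavy chain genes in B cells, stood at 4.22, 3.02, 3.97 and 4.55 CPM in CD24Mid and at 8.23, 11.5, 10.3 and 8.83 CPM in CD24Neg (log2 fold change -1.30 ± 0.18 SE, edgeR adjusted p = 8.88e-05). Arid3b, its paralog, stood at 7.13, 6.09, 5.94 and 5.71 CPM in CD24Mid and at 13.3, 12.7, 9.88 and 11.9 CPM in CD24Neg (-0.94 ± 0.15 SE, edgeR adjusted p = 1.96e-04). Neither gene's groups overlapped, but on unscaled totals Arid3a did not pass (-0.36) and Arid3b turned to 0.00055, next to no difference. The third paralog, Arid3c, had 0 reads in CD24Mid and 1 in CD24Neg. Arid4a and Arid4b, which bind the retinoblastoma protein and the Sin3 deacetylase complex, did not pass: Arid4a averaged 30.2 ± 8.34 CPM in CD24Mid cells and 27.1 ± 6.49 CPM in CD24Neg cells, and Arid4b 33.7 ± 9.96 CPM in CD24Mid cells and 45.9 ± 9.55 CPM in CD24Neg cells (edgeR adjusted p = 0.547 and 0.090). Arid4a passed on unscaled totals (1.10), and Arid4b was called higher in CD24Neg without CD24Mid replicate 7 (-0.58, adjusted p = 0.043). Its exons overlap Ggps1 on the opposite strand, which had 1059 unique reads in CD24Mid and 564 in CD24Neg.

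Several of these genes varied together within both groups, by a split chosen after the values were seen. The mean of replicates 5 and 7 over that of replicates 1 and 3 of CD24Mid, and the mean of replicates 6 and 8 over that of replicates 2 and 4 of CD24Neg, were 1.72 and 1.46 for Chd1, 1.74 and 1.46 for Chd9, 1.62 and 1.46 for Arid4a, 1.68 and 1.36 for Arid4b, and 1.54 and 1.31 for Smarca5. In CD24Mid, Smarcd3 at 1.71 and the pseudogene Smarca5-ps at 3.41 had ratios as wide or wider on few reads. Both libraries of the higher-numbered pair lay above both of the other for 15 of the 30 tested remodellers in CD24Mid (23.7% of all tested genes) and for 16 in CD24Neg (17.1% of all tested genes). They lay below for 5 in CD24Mid (35.2% of all tested genes) and for 4 in CD24Neg (19.4% of all tested genes). No label gives this split, and its part in the differences between the groups was not tested.

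Ratios of paralogs within a library do not depend on how libraries are scaled against each other, and were taken from unique reads per kilobase of effective length. Means of ratios are geometric. Of 15 pairs, 14 could be tested, since Smarca1 had libraries without a read. With 4 libraries against 4, the exact two-sided permutation test has 70 regroupings and cannot go below p = 0.0286. That smallest value was reached by 10 pairs, which gave each of them an adjusted p of 0.04 (Benjamini-Hochberg over the 14 pairs). Of these, 7 had the ratio higher in CD24Mid and 3 had it higher in CD24Neg. This adjusted p depends on how many of the chosen pairs reach the smallest value, so no call stands apart from the other pairs. The share of other gene pairs that separate the groups was not taken. Among single genes, the libraries did not overlap for 33% with CD24Mid above and 31.4% with CD24Neg above. The count of 10 is therefore not shown to be particular to paralogs. Each p below is from this exact test with n = 4 each.

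The NuRD ATPases had the largest shift. Chd4/Chd3 was 1.32, 2.29, 2.11 and 1.92 in CD24Mid and 0.209, 0.181, 0.169 and 0.155 in CD24Neg, so Chd4 exceeded Chd3 in every CD24Mid library and in no CD24Neg library. The ratio was 10.6 times as high in CD24Mid (log2 difference 3.40, exact p = 0.0286, adjusted p = 0.04). Chd4/Chd5 shifted the same way by 2.88 on the log2 scale, with few Chd5 reads behind it. The Chd4/Chd3 ratio holds both the higher Chd4 and the lower Chd3 of CD24Mid.

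Within SWI/SNF the scaffold pair shifted most. Smarcc1/Smarcc2 was 0.558, 0.733, 0.855 and 0.805 in CD24Mid and 0.175, 0.199, 0.176 and 0.220 in CD24Neg (log2 difference 1.93, exact p = 0.0286, adjusted p = 0.04). Smarcc1 thus made up 42.2% ± 4.53 of the pair per kilobase in CD24Mid and 16.1% ± 1.51 in CD24Neg (SD, n = 4 each). For the DNA-binding pair Arid1a/Arid1b, the ratios were 1.45, 1.89, 1.49 and 1.58 in CD24Mid and 1.33, 1.44, 1.21 and 1.24 in CD24Neg, a small shift of 0.29 on the log2 scale without overlap (exact p = 0.0286, adjusted p = 0.04). The share of Arid1a in that pair was 61.4% ± 2.77 in CD24Mid and 56.5% ± 1.91 in CD24Neg. Smarcd1/Smarcd2 was lower in CD24Mid by 0.34 on the log2 scale, with means of 0.161 in CD24Mid and 0.203 in CD24Neg, and Smarcd2 held 85.0% ± 1.13 of the 3 Smarcd genes in CD24Mid and 81.9% ± 0.767 in CD24Neg.

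The catalytic pair gave no such shift per kilobase. Smarca4/Smarca2 was 2.72, 2.29, 2.15 and 2.70 in CD24Mid and 2.72, 2.56, 2.50 and 2.32 in CD24Neg, with overlap (log2 difference -0.04, exact p = 0.714, adjusted p = 0.769). The pooled SD of the log2 ratio was 0.139. The value changed with how the ratio was taken. From reads without division by length the difference was 0.50 (exact test, adjusted p = 0.067), and from the deposited estimates, which count shared reads, it was 0.46 (exact test, adjusted p = 0.044), both toward CD24Mid. Reads unique to Smarca2 were 72.7% of its estimated reads.

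The effective length of Smarca2, the length over which the authors' software spread its reads, itself differed between groups. It was 2509.8, 2337, 2832 and 2848 bases in CD24Mid and 3544, 3991, 4625 and 3507 bases in CD24Neg, with no overlap (exact permutation p = 0.0286, n = 4 each). GENCODE M21 lists 27 coding transcripts of Smarca2, from 421 to 5921 bases. Chd3 went the other way, with 2164, 2484, 2490 and 2342 bases in CD24Mid and 1989, 2068, 2120.1 and 2037 bases in CD24Neg, and Smarca4 and Arid4a had groups that did not overlap but differed by no more than 1.05 times. In all, 4 of 30 remodellers had lengths that did not overlap between groups, as did 7.89% of all genes with a length, and 3 of the 4 were longer in CD24Neg (4.98% of all genes). Transcript forms were not analysed here, and a length per gene does not say which forms changed.

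**Figure D3:**
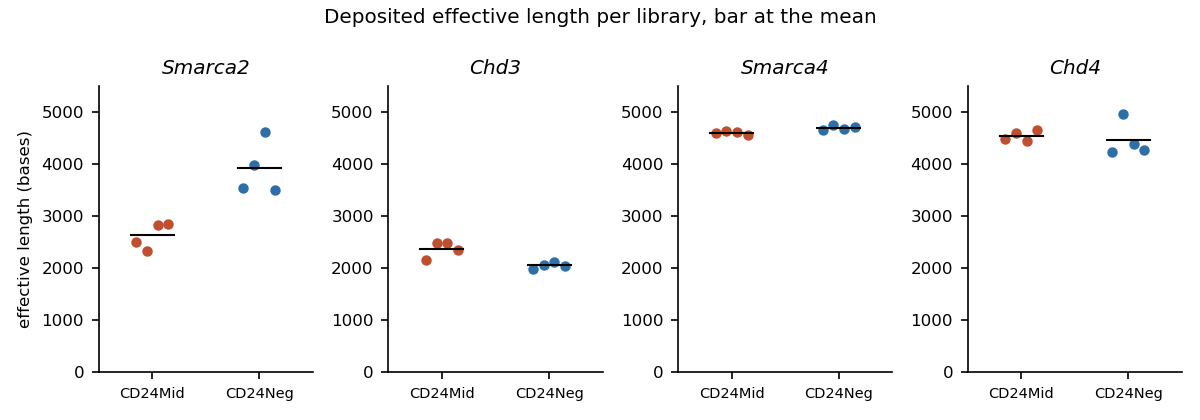
Deposited effective length in bases of Smarca2, Chd3, Smarca4 and Chd4, with 1 point per library and a bar at the mean. Smarca2 lies at 2337 to 2848 bases in CD24Mid and at 3507 to 4625 bases in CD24Neg, whereas the Chd4 libraries overlap.

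Other pairs shifted to differing degrees. Arid5a/Arid5b had the widest shift toward CD24Neg, with a mean ratio of 0.0925 in CD24Mid and 0.908 in CD24Neg (log2 difference -3.29). Chd6/Chd9 averaged 1.25 in CD24Mid and 0.513 in CD24Neg (1.28), and Arid4a/Arid4b 0.992 in CD24Mid and 0.591 in CD24Neg (0.75). Chd1/Chd2 stood at 1.34, 1.21, 1.63 and 1.27 in CD24Mid and at 0.746, 0.845, 0.951 and 0.967 in CD24Neg, so that per kilobase Chd1 exceeded Chd2 in all CD24Mid and in no CD24Neg libraries. By unique reads Chd1 lay below Chd2 in CD24Mid replicates 1 (893 against 990) and 3 (932 against 1061), and above it in replicates 5 and 7. Chd8/Chd7 averaged 3.12 in CD24Mid and 4.73 in CD24Neg (-0.60). All of these 5 pairs reached the smallest exact p, although Chd6/Chd9 and Chd8/Chd7 lost their call on the deposited estimates (adjusted p = 0.073 each). Arid3a/Arid3b did not pass, at a log2 difference of -0.44 (exact p = 0.0571, adjusted p = 0.073), nor did Arid2/Arid1a at -0.04 (exact p = 0.8) or Smarcd1/Smarcd3 at -0.63 (exact p = 0.686). The last rests on 4, 3, 2 and 4 Smarcd3 reads in the CD24Neg libraries, over effective lengths of 377, 774, 2282 and 266 bases. Its CD24Neg ratios ran from 5.40 to 147. Without division by length the Smarcd1/Smarcd3 difference was -1.75 and passed (exact test, adjusted p = 0.036).

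**Figure D4:**
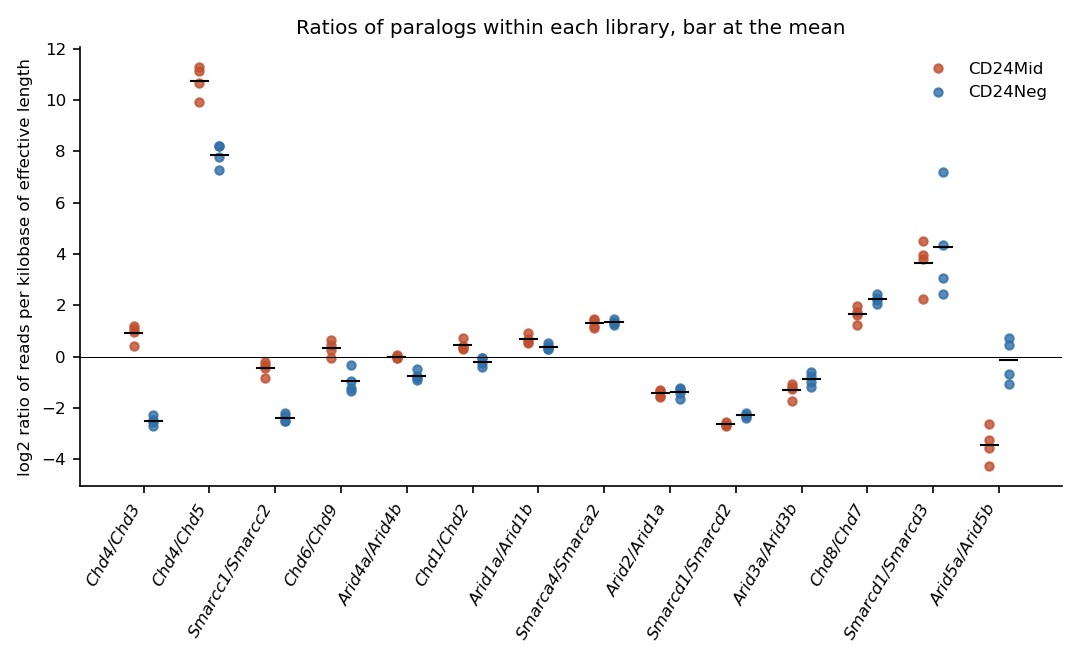
Log2 ratio of reads per kilobase of effective length for the 14 tested paralog pairs, with 1 point per library, CD24Mid left of CD24Neg in each pair, with a bar at the mean. Pairs run from Chd4/Chd3, with a log2 difference of 3.40 toward CD24Mid, to Arid5a/Arid5b at -3.29, and the Smarca4/Smarca2 points overlap.

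Genes of fixed lists, called partners here for short, are given beside these remodellers as counts. Some are subunits of the complexes in which the remodellers work. The INO80, SRCAP and TIP60 list (21 tested genes) and the list of other SNF2-family ATPases (13 tested genes) hold genes outside those complexes. The Arid list holds both partners and other genes with the AT-rich interaction domain. Of 79 tested partners, edgeR called 44 toward CD24Mid (35.5% of all tested genes) and 14 toward CD24Neg (34.3%), with a median log2 fold change of 0.42, close to the 0.41 of the remodellers. On unscaled totals these counts were 73 (69.8% of all tested genes) and 2 (12.9%). The shares of all tested genes, 35.5% toward CD24Mid and 34.3% toward CD24Neg, apply to each list that follows.

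In NuRD, 9 of 12 partners were higher in CD24Mid and 1 in CD24Neg, with a median of 0.84. Rbbp7 and Rbbp4, histone-binding chaperones that other complexes share, and the deacetylase Hdac2 had log2 fold changes of 1.78, 1.54 and 1.54. Rbbp7 averaged 215 ± 21.7 CPM in CD24Mid cells and 62.9 ± 5.75 CPM in CD24Neg cells (edgeR adjusted p = 3.42e-07). Mta3 was the partner called higher in CD24Neg (-0.47, edgeR adjusted p = 7.98e-04), which turned to 0.47 on unscaled totals.

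Among the 17 tested SWI/SNF partners 9 were called toward CD24Mid and 4 toward CD24Neg, with a median of 0.34. Bcl7a, a small subunit, averaged 33.7 ± 3.85 CPM in CD24Mid cells and 6.45 ± 1.25 CPM in CD24Neg cells (log2 fold change 2.39 ± 0.16 SE, edgeR adjusted p = 3.80e-07). Actl6a, the actin-related subunit of progenitor cells, and Bcl7c followed with 1.32 and 1.25. Dpf3, a histone reader known from heart and muscle, averaged 2.67 ± 0.524 CPM in CD24Mid cells and 11.5 ± 3.69 CPM in CD24Neg cells (-2.11 ± 0.26 SE, edgeR adjusted p = 3.49e-05). Actb, which is also the main cytoplasmic actin, was higher in CD24Neg as well (-1.56, edgeR adjusted p = 1.51e-05). Ss18l1 was called higher in CD24Neg (-0.40, adjusted p = 0.024) and turned to 0.54 on unscaled totals. That call was also lost with upper-quartile scaling (adjusted p = 0.269), no filter (0.153) and limma (0.067), and without CD24Mid replicate 3 or 7 or CD24Neg replicate 4 or 6 (adjusted p = 0.052 to 0.111). Actl6b and Dpf1, the subunits of neuronal complexes, were too low to test.

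Partners of the other families moved less evenly. Of 8 tested ISWI partners, 3 were higher in CD24Mid, a share near that of all tested genes, with Baz1b at 1.35, Baz1a at 0.59 and Pole3 at 0.56, and Baz2b alone was higher in CD24Neg (-0.72, or 0.23 on unscaled totals). The call of Baz1a was lost with limma (adjusted p = 0.072) and without CD24Mid replicate 5 or 7 or CD24Neg replicate 2 or 4 (adjusted p = 0.083 to 0.105). The group of INO80, SRCAP and TIP60 had 11 of 21 higher in CD24Mid and 3 in CD24Neg, led by the paired ATPases Ruvbl1 (2.18, edgeR adjusted p = 1.91e-07) and Ruvbl2 (1.72, adjusted p = 1.26e-06) and by Actr6 (1.38). Its genes higher in CD24Neg were Znhit1 (-0.76), Ino80c (-0.61) and Dmap1 (-0.49), which turned to 0.18, 0.33 and 0.45 on unscaled totals. Dmap1 also lost its call with upper-quartile scaling (adjusted p = 0.172) and without CD24Mid replicate 5 or 7 or CD24Neg replicate 2 (adjusted p = 0.051 to 0.057). Other ATPases of the SNF2 family had 10 of 13 higher in CD24Mid and the largest median, 0.99. Rad54b and Rad54l, of recombination repair, and Ercc6l, of mitotic chromosome segregation, had the widest changes, at 3.56, 3.30 and 3.45 (edgeR adjusted p = 9.56e-07 or less). The dividing-cell markers ran from 1.33 to 3.74 in the same comparison. Ercc6, of transcription-coupled repair, was the single gene of that list called higher in CD24Neg (-0.40, or 0.54 on unscaled totals), a call lost with upper-quartile scaling (adjusted p = 0.272), no filter (0.117) and limma (0.061), and without CD24Mid replicate 1 or 3 or CD24Neg replicate 4, 6 or 8 (adjusted p = 0.055 to 0.145). The list of Arid partners and other genes with the ARID domain, such as Kdm5b, had 2 of 8 higher in CD24Mid and 4 in CD24Neg, with a median of -0.10. Sin3a (0.80) and Phf2 (0.65), the partner of Arid5b, were higher in CD24Mid, and Kdm5b (-0.81), Rb1 (-0.80) and Sin3b (-0.63) were the 3 widest changes toward CD24Neg, although these turned to 0.13, 0.15 and 0.31 on unscaled totals.

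**Figure D5:**
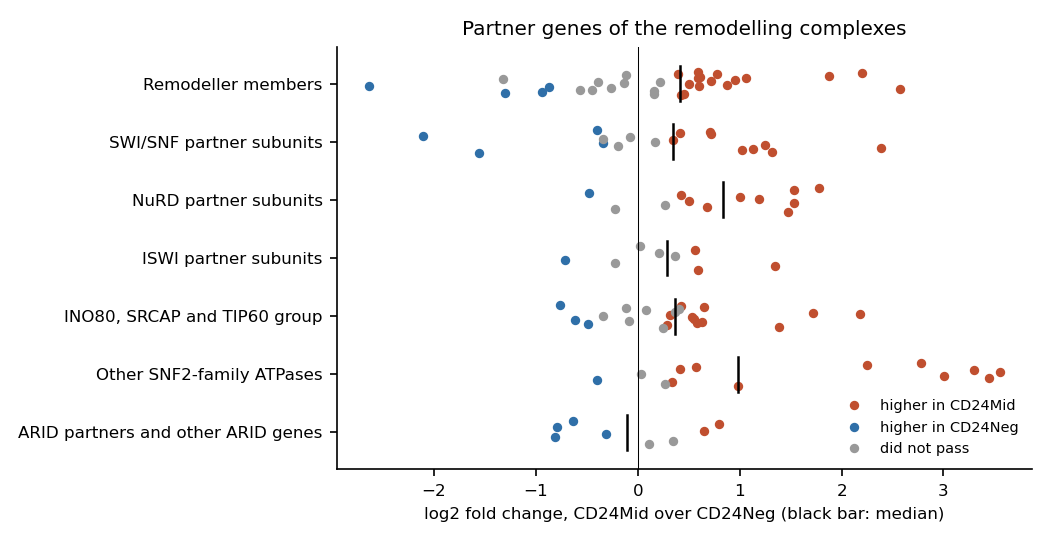
Log2 fold change, CD24Mid over CD24Neg, of the tested remodellers and of the tested genes in 6 lists of partner and related genes. Each point is 1 gene, coloured by the edgeR call on TMM-scaled counts, with a black bar at each list's median. Medians run from -0.10 for the Arid partners and other ARID genes to 0.99 for the other SNF2-family ATPases. Of the 14 listed genes called higher in CD24Neg, 2 kept that call on unscaled totals.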

How the data were processed

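Total RNA of the sorted cells went into TruSeq RNA libraries, per the labels' protocols. The submitters' processing notes name the aligner Bowtie 0.12.8 and the build NCBIM37. For each gene the authors deposited a count of reads that hit it alone, the main measurement, an effective length in bases, and an expression estimate that includes shared reads, read as a natural log since its scale is not stated by the labels. Annotation release, counting version and strand setting: not given in the sources used here. Symbols came from a later annotation and matched 32897 of 37620 gene IDs, with 99.3% of the counts. No coordinate of the deposited build was used.

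The count test was the quasi-likelihood F test of edgeR 4.0.16 under R 4.3.3 (robust fit, TMM, filterByExpr, a model with the group alone, Benjamini-Hochberg over 12840 genes, threshold 0.05). The SE is the log2 fold change divided by the root of F. The test was first tried on simulated counts with known fold changes. Few genes changed there, in both directions, so that trial does not bear on the scaling between groups as unlike as these. Paralog ratios took unique reads per kilobase of effective length, with an exact two-sided permutation test in SciPy 1.17.1. All remodellers may be named, and up to 3 genes called in each direction per partner list with the widest changes. The remodellers, lists and pairs were chosen with earlier results of these data known. Alternatives were RLE, upper-quartile and no scaling, no filter, DESeq2 1.42.0, estimated counts, limma 3.58.1 on the deposited estimates, ratios by reads or estimates, and each library left out. Intervals and limits of detection cover counting error only, since reads are not independent molecules. The edgeR p-values weigh each group difference against the spread between the sorted samples of a group, estimated with help from all genes. The exact p-values count regroupings of the libraries. Whether a sample pools animals is not given by the labels.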

Additional observations from a re-analysis of the deposited data

Results flagged for a closer look

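Within groups of 4 libraries, the highest or lowest value was checked for its gap to the nearest other library relative to the group's range (Dixon's test at 95%). Of 94 sets of 4 values, 5 were flagged, and chance flags about 1 in 20. Smarcc1 stood at 85.6 CPM in CD24Mid replicate 1, below the other CD24Mid libraries and above every CD24Neg library. Smarce1 stood at 89.7 CPM in CD24Mid replicate 3, above the rest of its group. Smarcd1 at 28.9 CPM and Smarcd2 at 108 CPM were both high in CD24Neg replicate 2, and both lay below the lowest CD24Mid library. Arid3c had its single read in CD24Neg replicate 4, which gave 0.116 CPM there and 0 elsewhere.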

How the results depend on the processing

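No paired analysis was possible because the libraries carry the numbers 1 to 8, no number is shared between the groups and no label says which libraries belong together. The 16 remodeller calls toward CD24Mid were kept under every alternative except limma on the deposited estimates, where Chd7 was lost, and the count ran from 16 to 17 with a library left out. The 4 calls toward CD24Neg were kept except on unscaled totals, where 1 remained, and ran from 4 to 6 with a library left out, as Chd5 and Arid4b came in. Without scaling, log2 fold changes turned positive for Arid3b (0.00055), Chd2 (0.070), Arid4b (0.50), Arid5a (0.38), Chd1 (0.69), Chd8 (0.81), Chd9 (0.56) and Smarcc2 (0.83). Among the partners named above, the only partners followed gene by gene, they also turned positive for Baz2b (0.23), Dmap1 (0.45), Ercc6 (0.54), Ino80c (0.33), Kdm5b (0.13), Mta3 (0.47), Rb1 (0.15), Sin3b (0.31), Ss18l1 (0.54) and Znhit1 (0.18). With upper-quartile scaling Chd8 (0.086) and Smarcc2 (0.11) did, and on estimated counts Smarca2 turned to -0.28. On unscaled totals (69.8% of all tested genes), partner counts toward CD24Mid became 73 of 79 for all lists and 15 of 17 for SWI/SNF. There they became 7 of 8 for ISWI, 20 of 21 for INO80 and 6 of 8 for the Arid list. With no filter (25.1% of all tested genes) ISWI had 5 of 9. With upper-quartile scaling (43.6% of all tested genes) ISWI had 5 of 8 and the Arid list 4 of 8. Counts toward CD24Neg became 9 of 79 for all lists with upper-quartile scaling (27.3% of all tested genes) and 2 without scaling (12.9%). For SWI/SNF they became 2 with upper-quartile scaling, no scaling (17 tested each) or no filter (19 tested, 20.3% of all tested genes). For ISWI they became 2 of 8 with DESeq2, where the share of all genes was not taken. Counts toward CD24Neg became 0 on unscaled totals for NuRD, ISWI, INO80, other SNF2 ATPases and the Arid list. They were also 0 for other SNF2 ATPases with upper-quartile scaling, no filter or limma. With a library left out, NuRD had 1 to 2 and other SNF2 ATPases 0 to 1 toward CD24Neg. Ratios on reads gave 0.50 for Smarca4/Smarca2, 0.018 for Arid2/Arid1a and -1.75 for Smarcd1/Smarcd3, which then passed (exact test, adjusted p = 0.036). On estimates, Smarca4/Smarca2 was 0.46, and Chd6/Chd9 (1.14) and Chd8/Chd7 (-0.52) did not pass. The called pairs numbered 10, or 9 on estimates and 11 on reads. With a library left out, Smarca4/Smarca2 ran from -0.09 to 0.02, Arid2/Arid1a from -0.13 to 0.01 and Smarcd1/Smarcd3 from -1.24 to 0.35. The cause of these changes was not tested. Depth limits Smarcd3, Chd5, Smarca1, Arid3c and Smarca5-ps, and shared reads limit Smarca5, Smarca5-ps, Smarca2, Smarcd3, Chd6 and Arid5a.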
